A study of Mus musculus with 8 samples.

Results

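The microRNAs (miRNAs) described here are 5 mouse members of the miR-30 family in their 5p form, mmu-miR-30a-5p, mmu-miR-30b-5p, mmu-miR-30c-5p, mmu-miR-30d-5p and mmu-miR-30e-5p. They were chosen by name, as the array's design lists them, and are 5 of 611 mouse miRNAs on the array. The cells were C3H10T1/2, an established mouse mesenchymal line that responds to hedgehog proteins and can form bone-like and cartilage-like cells. In the WT group they were kept for 48 h with 750 nM of wild type IhhN, the signalling N-terminal part of Indian hedgehog, and in the MT group with 750 nM of IhhN carrying the E95K change, which is known from brachydactyly type A1. The control group was cultured for 48 h and its induction is given as none, although the labels also carry the 750 nM dose for it, so that only the statement of no induction was used here. All groups are of 1 unmodified cell line, and no promoter, transgene or knockout was involved. Each group had 2 RNA samples, and each WT sample was hybridized on 2 arrays, which gave 8 one-colour Agilent arrays on 1 slide.

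A miRNA guides the silencing machinery to mRNAs that pair with its seed, bases 2 to 8 from the 5′ end, and lowers their output. Members of the miR-30 family share a seed and so many targets, among them Runx2, the transcription factor that drives osteoblast differentiation, and Smad1, which carries bone morphogenetic protein signals to the nucleus. In bone-forming cells the family is known as a brake on osteogenic differentiation, which hedgehog signals promote in C3H10T1/2 cells. The arrays measured no mRNA, so neither target was read here, and in a culture read as a whole fewer expressing cells and less of a miRNA per cell cannot be told apart.

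Mature sequences were found for 3 of the 5 members (miR-30a-5p, miR-30c-5p and miR-30e-5p) and not for miR-30b-5p and miR-30d-5p in the RefSeq table used, whose build is GRCm38.p6. They are shown because the shared seed defines the family and because the few bases outside it are what the probes had to tell apart. Capitals mark the seed.
miR-30a-5p: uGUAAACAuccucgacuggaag
miR-30c-5p: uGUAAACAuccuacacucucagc
miR-30e-5p: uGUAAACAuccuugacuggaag

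All 3 carried the seed GUAAACA and were identical over their first 12 bases. Counted from 1 at the 5′ end, miR-30a-5p and miR-30e-5p differed at 1 of 22 compared bases, C13U. From miR-30a-5p to miR-30c-5p there were 5 differences, C13A, G14C, G18C, G19U and A20C, and miR-30c-5p was 1 base longer (23 against 22). Of 1679 mature miRNAs in the table, 1 other had this seed, miR-384-5p, which was on the array and detected on 0 of 8 arrays.

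The genes of these members lie in 2 pairs on GRCm38.p6. On chromosome 1, miR-30a-5p comes from Mir30a (chr1:23272274-23272295, plus strand) and miR-30c-5p from Mir30c-2 (chr1:23291714-23291736, plus strand), with 19361 bases between the hairpins. On chromosome 4, miR-30c-5p also comes from Mir30c-1 (chr4:120769584-120769606, minus strand) and miR-30e-5p from Mir30e (chr4:120772660-120772681, minus strand), with 2983 bases between the hairpins. Both genes on chromosome 4 lie within the span of Nfyc, which encodes a subunit of the transcription factor NF-Y. Mir30e also overlapped a further miRNA gene, Mir30f, while no other gene in the table overlapped Mir30a or Mir30c-2. An array reading of miR-30c-5p is the sum of both its genes.

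Detection on an array required that more than 50% of the spots of at least 1 probe be marked well above background. Between 104 and 150 mouse miRNAs were detected per array, and tests covered the 142 that every array of 1 or more groups detected. The mesenchymal origin of the cells was seen in their miRNAs, as 6 of 9 mesenchymal marker entries were detected on all arrays and 2 on none (miR-10b and miR-196a), whereas none of 7 epithelial, 5 blood, 4 muscle and 1 liver marker entries was detected on any array, and of 4 neural entries only miR-128 was, on 5 arrays. The muscle entry miR-1 matched no miRNA name on the array, so it was not read. The 2 arrays of column 1 of the slide, the first of WT replicate 1 and that of MT replicate 1, had the widest negative controls (an SD of 6.63 and 5.61 signal units, whereas the others ranged from 2.91 to 3.76). The left side, columns 1 and 2, held both MT samples with WT replicate 1, and the right side held both control samples with WT replicate 2, so that MT and control samples never shared a side, and a fit with side as a term takes its side effect from the difference between the 2 WT samples alone.

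No member passed the test in any comparison. miR-30a-5p, miR-30c-5p and miR-30d-5p had nearly equal means in the WT and control groups, whereas miR-30b-5p and miR-30e-5p had their highest values in both control samples. Differences from the control group were 0.02, -0.35, 0.01, 0.15 and -0.55 on the log2 scale for the WT group, and -0.10, -0.52, -0.27, 0.10 and -0.67 for the MT group, in the order a, b, c, d, e. Levels are given below as log2 of the background-subtracted signal divided by the 75th percentile of the array over its 174 probes detected on all arrays. Before the log, the quotient was multiplied by the geometric mean of the 8 arrays' percentiles, a factor common to all arrays. Since probes bind with different strength, a level was compared between samples and never between miRNAs. The labels do not say whether the replicates came from separate cultures, so p-values measure only the spread between these samples.

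miR-30a-5p, the member that pairs with Mir30c-2 on chromosome 1, was detected on all 8 arrays. Its level was 8.47 and 8.21 in control replicates 1 and 2, 8.35 and 8.36 in the WT samples, and 8.15 and 8.33 in the MT samples. The WT samples lay between the control samples, and MT replicate 1 was the lowest of the 6. The means were 8.34 ± 0.18 in the control group, 8.35 ± 0.01 in the WT group and 8.24 ± 0.13 in the MT group (SD, n = 2 each). By limma with Benjamini-Hochberg adjustment, the WT group stood at 1.01 times the control level, with a 95% interval of 0.772 to 1.32 and an adjusted p of 0.953. The MT group stood at 0.936 times the control level (0.714 to 1.23, adjusted p by limma = 0.688).

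miR-30b-5p was detected on all 8 arrays and varied more. Its level was 8.69 and 8.44 in the control samples, 8.25 and 8.19 in the WT samples, and 7.75 and 8.35 in the MT samples. Both control samples lay above all 4 others, and the MT samples differed from each other by more than the groups did. The means were 8.56 ± 0.18, 8.22 ± 0.04 and 8.05 ± 0.42 in the control, WT and MT groups (SD, n = 2 each). The WT group stood at 0.787 times the control level (95% interval 0.544 to 1.14, adjusted p by limma = 0.309) and the MT group at 0.699 times (0.484 to 1.01, adjusted p = 0.132). MT replicate 1, on an array of wide negative controls, held the lowest value, and the part of that array in the result was not tested. Without MT replicate 2 the difference between MT and control was -0.81 with an adjusted p of 0.042 by limma, the lone sample being assumed to vary like the other groups, and without MT replicate 1 it was -0.22. The second probe of this miRNA, detected on 7 arrays, had differences of -0.46 and -0.75 from the control group in the WT and MT groups.

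miR-30c-5p was detected on all 8 arrays. Its level was 7.83 and 7.70 in the control samples, 7.81 and 7.74 in the WT samples, and 7.34 and 7.66 in the MT samples. WT and control samples were interleaved, and both MT samples were below all others. The means were 7.76 ± 0.09, 7.77 ± 0.05 and 7.50 ± 0.23 in the control, WT and MT groups (SD, n = 2 each). The WT group stood at 1.01 times the control level (95% interval 0.761 to 1.33, adjusted p by limma = 0.982) and the MT group at 0.832 times (95% interval of the log2 difference -0.67 to 0.14, adjusted p = 0.266). The MT difference was -0.10 without MT replicate 1 and -0.43 without MT replicate 2.

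miR-30d-5p was detected on all 8 arrays by both of its probes. Its level was 7.52 and 7.21 in the control samples, 7.60 and 7.42 in the WT samples, and 7.44 and 7.49 in the MT samples. The control samples enclosed both MT samples and WT replicate 2, so that no groups were separated. The means were 7.37 ± 0.22, 7.51 ± 0.13 and 7.47 ± 0.03 in the control, WT and MT groups (SD, n = 2 each). The WT group stood at 1.11 times the control level (95% interval 0.835 to 1.47, adjusted p by limma = 0.557) and the MT group at 1.07 times (0.809 to 1.42, adjusted p = 0.688). The second probe gave 0.13 and 0.12 for the same log2 differences.

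miR-30e-5p, which differs from miR-30a-5p by a single base, was close to background. It was detected on 5 of 8 arrays, namely both control arrays, both arrays of WT replicate 2 and that of MT replicate 2, and it entered the tests through the control group alone. Its unscaled signal ran from 18.4 to 60.1 signal units, and its second probe was detected on no array. The level was 5.31 and 5.47 in the control samples, 4.62 and 5.06 in the WT samples, and 4.73 and 4.71 in the MT samples. Both control samples were above all others, and the lowest was WT replicate 1, whose 2 arrays differed by 0.57. For the other 4 members the 2 arrays of a WT sample differed by 0.05 to 0.13.

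The mean level of miR-30e-5p was 5.39 ± 0.11, 4.84 ± 0.31 and 4.72 ± 0.02 in the control, WT and MT groups (SD, n = 2 each). The WT group stood at 0.682 times the control level (95% interval 0.501 to 0.928, unadjusted p = 0.022 and adjusted p = 0.139 by limma) and the MT group at 0.629 times (0.462 to 0.855, unadjusted p = 0.009 and adjusted p = 0.062). A miRNA that passes a filter only where it is high is bound to be high there. Normexp on the median signal, with an offset of 50 signal units, put the WT group 0.20 and the MT group 0.07 above the control group on the log2 scale. That offset exceeded the unscaled signal of miR-30e-5p on every WT and MT array (at most 35.3 signal units). The turn therefore cannot be assigned to the background correction alone, and the part of the offset was not tested. When slide side was fitted, the differences were -0.34 in the WT group and -0.24 in the MT group, with unadjusted p of 0.084 and 0.313 by limma. In this layout the WT difference with side fitted equals that without WT replicate 1, so the 2 are not separate checks. With every RNA sample kept, the unadjusted call of the WT group was also lost without the detection filter and with the mean of all probes. It was lost too with the second technical arrays alone, RNA sample as a random effect, or scaling over all mouse probes. That of the MT group was also lost with the second technical arrays alone. With 1 RNA sample left out at a time, the WT difference ranged from -0.77 to -0.34 and the MT difference from -0.75 to -0.59. The unadjusted call of the WT group was lost without WT replicate 1 (-0.34), control replicate 1 (-0.63) or control replicate 2 (-0.47), and that of the MT group without control replicate 2 (-0.59).

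**Figure D1:**
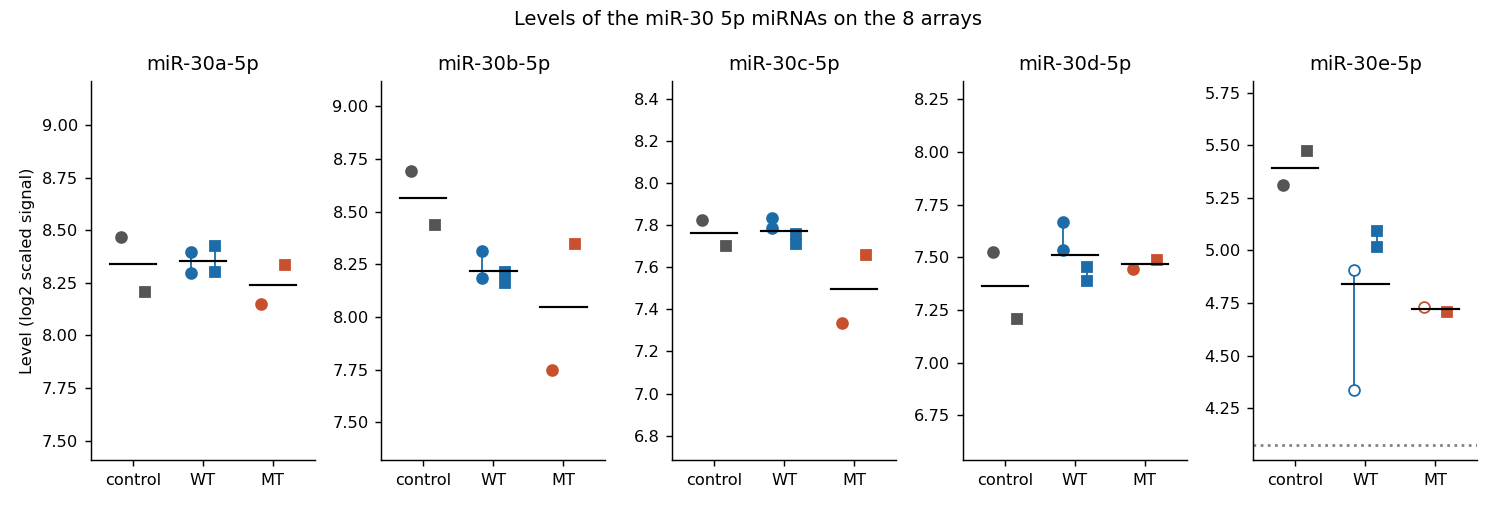
Level of each miR-30 5p miRNA (log2 scaled signal, vertical axis, of equal height in every panel) on the 8 arrays by group, with circles for replicate 1, squares for replicate 2, open symbols where the miRNA was not detected, vertical lines joining the 2 arrays of a WT sample, black bars for group means and a dotted line for the floor (4.08). Control arrays are highest for miR-30b-5p and miR-30e-5p, and MT replicate 1 is lowest for miR-30a-5p, miR-30b-5p and miR-30c-5p.

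The WT group was compared with the control group to find miRNAs that answer to wild type IhhN. Of the 5 members, 0 passed an adjusted p of 0.05 by limma, as did 0% of the 142 miRNAs. That background depended on the setting, and normexp called 22 of 142 miRNAs with 0 members among them. At an unadjusted p of 0.05 by limma, 1 member was lower (miR-30e-5p) and 0 were higher, beside 10.6% of all tested miRNAs lower and 17.6% higher. The samples did not overlap for 2 members, both lower in the WT group (miR-30b-5p and miR-30e-5p), beside 25.4% of all tested miRNAs lower and 39.4% higher in this way. The members' median difference was 0.01 and that of all tested miRNAs 0.12, and 4 of 5 members were below the latter. A difference below 0 was found for 2 of 5 members and 38.7% of all tested miRNAs. No member differed by more than 2-fold, beside 2.11% of all tested miRNAs. miR-30e-5p was tested only because the control group detected it, so its part in these counts and medians was favoured by the filter. Apart from it, 0 members were at an unadjusted p of 0.05 by limma, and only miR-30b-5p did not overlap.

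The MT group was compared with the same control samples. Again 0 of 5 members passed an adjusted p of 0.05 by limma, as did 0% of all tested miRNAs. The background was 40 of 142 miRNAs with normexp, 29 of 103 when only miRNAs detected on all 8 arrays were tested, and 11 of 142 when all 8 arrays were fitted with RNA sample as a random effect, each with 0 members, and 30 of 142 without MT replicate 2, with 1 member (miR-30b-5p). At an unadjusted p of 0.05 by limma, 1 member was lower (miR-30e-5p) and 0 were higher, beside 12.7% lower and 26.8% higher. For 3 members (miR-30b-5p, miR-30c-5p and miR-30e-5p) both MT samples were below both control samples, beside 26.8% of all tested miRNAs, and for 0 members both were above, beside 40.8%. A difference below 0 was found for 4 of 5 members and 42.3% of all tested miRNAs. The median difference was -0.27 for the members and 0.13 for all tested miRNAs, and 5 of 5 members were below the latter. Without MT replicate 1 the members' median was -0.10 and without MT replicate 2 it was -0.43. No member differed by more than 2-fold, beside 0.704% of all tested miRNAs. Here too miR-30e-5p was tested only because the control group detected it, which favoured its part in these counts and medians. Apart from it, 0 members were at an unadjusted p of 0.05 by limma, and miR-30b-5p and miR-30c-5p did not overlap.

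The WT and MT groups were compared with each other to ask what the E95K change alters. The differences of the members were 0.11, 0.17, 0.27, 0.05 and 0.12 in the order a to e, all higher in the WT group, with an adjusted p of 0.990 each by limma. At an unadjusted p of 0.05 by limma, 0 members and 0% of all tested miRNAs were called. The WT samples were above the MT samples without overlap for miR-30a-5p and miR-30c-5p, 2 of 5 members, beside 8.45% of all tested miRNAs, and below them for 0 members, beside 17.6%. A difference below 0 was found for 0 of 5 members and 59.9% of all tested miRNAs. No member differed by more than 2-fold, as was so for 0% of all tested miRNAs. The widest interval was that of miR-30b-5p, from 0.778 to 1.63 times the MT level, and the log2 difference of miR-30c-5p had an interval of -0.13 to 0.68. The difference of miR-30c-5p was 0.11 without MT replicate 1 and 0.44 without MT replicate 2. The direction turned for miR-30b-5p without MT replicate 1 (-0.13), for miR-30d-5p without WT replicate 1 (-0.04) and for miR-30e-5p without WT replicate 2 (-0.10).

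**Figure D2:**
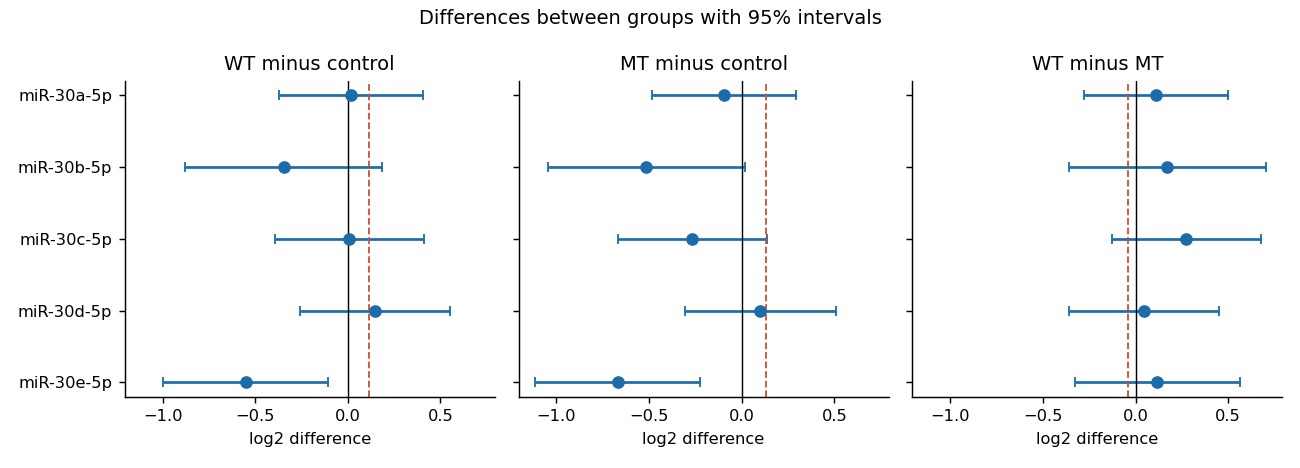
Log2 difference (horizontal axis) of each miR-30 5p miRNA between groups in the 3 comparisons, as points with 95% intervals from limma, where the solid line marks 0 and the dashed line the median of the 142 tested miRNAs (0.12, 0.13 and -0.04). The intervals of miR-30e-5p against the control group end below 0 (-0.11 and -0.23), and all other intervals include 0. miR-30e-5p was tested only because the control group detected it.

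Comparison within the side of the slide used fewer samples and gave no test. Its left values equal WT minus MT with slide side fitted or with WT replicate 2 left out. Its right values equal WT minus control with side fitted or with WT replicate 1 left out. They are therefore no separate check. On the left side, WT replicate 1 minus the mean of the MT samples was 0.10, 0.20, 0.31, 0.13 and -0.10 in the order a to e. On the right side, WT replicate 2 minus the mean of the control samples was 0.02, -0.38, -0.03, 0.06 and -0.34. The right-side values share their control samples with the whole-set differences, and against those the sign turned for miR-30c-5p on the right side and for miR-30e-5p on the left.

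The order of the group means differed among the members. miR-30b-5p and miR-30e-5p ran from control through WT to MT, miR-30a-5p and miR-30c-5p from WT through control to MT, and miR-30d-5p from WT through MT to control. Neighbouring groups overlapped at both steps for miR-30a-5p and miR-30d-5p, and WT and MT overlapped for miR-30b-5p and miR-30e-5p. The span between the highest and lowest group mean was 0.11, 0.52, 0.27, 0.15 and 0.67 in the order a to e, with a median span of 0.41 over all tested miRNAs. Of these miRNAs, 8.45% had a smaller span than miR-30a-5p, 11.3% a smaller one than miR-30d-5p and 82.4% a smaller one than miR-30e-5p.

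Log ratios of 2 members within an array are free of the scaling between arrays. The log2 ratio of miR-30b-5p to miR-30d-5p was 1.17 and 1.23 in the control samples, 0.65 and 0.77 in the WT samples, and 0.31 and 0.86 in the MT samples. The control ratios were above all others. The difference from the control group was -0.49 in the WT group and -0.62 in the MT group, where the smallest p that a two-sided exact permutation test of 2 against 2 samples can give is 0.333. Of the 10 pairs of members, 7 did not overlap between WT and control, 9 between MT and control and 2 between WT and MT. Pairs with miR-30e-5p, which was tested only because it was detected in the control group, made up 3 of the 7 and 3 of the 9. Of the 6 pairs without it 4, 6 and 2 did not overlap. Pairs with miR-30b-5p made up 3 of these 4, 3 of these 6 and 0 of these 2, so that the pairs are not separate results. The pair of miR-30b-5p and miR-30d-5p given above had the widest differences from the control group among pairs without miR-30e-5p. Among all 10011 pairs of tested miRNAs the shares were 56.9%, 61.1% and 24.4%.

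The members' values depended on how the arrays were scaled. With the 75th percentile taken over all mouse probes, which was only 3.70 to 8.05 signal units close to the SD of the negative controls, the members' median difference from the control group was -0.35 in the WT group and -0.98 in the MT group, with miR-30d-5p at -0.21 and -0.61. That scaling also set the median of all tested miRNAs to -0.19 and -0.52. miR-30b-5p was below the control group in all 17 settings that kept every RNA sample for WT against control and all 18 for MT against control, and after the median of all tested miRNAs was subtracted as well. Many of these settings changed only the floor, filter, blocking or model of the spread. They left its differences at -0.35 and -0.52, so that the counts are not of separate checks. Over all of them the differences ran from -0.70 to -0.25 in the WT group and from -1.23 to -0.39 in the MT group. miR-30d-5p turned from 0.10 to -0.08 in MT against control under quantile normalization.

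**Figure D3:**
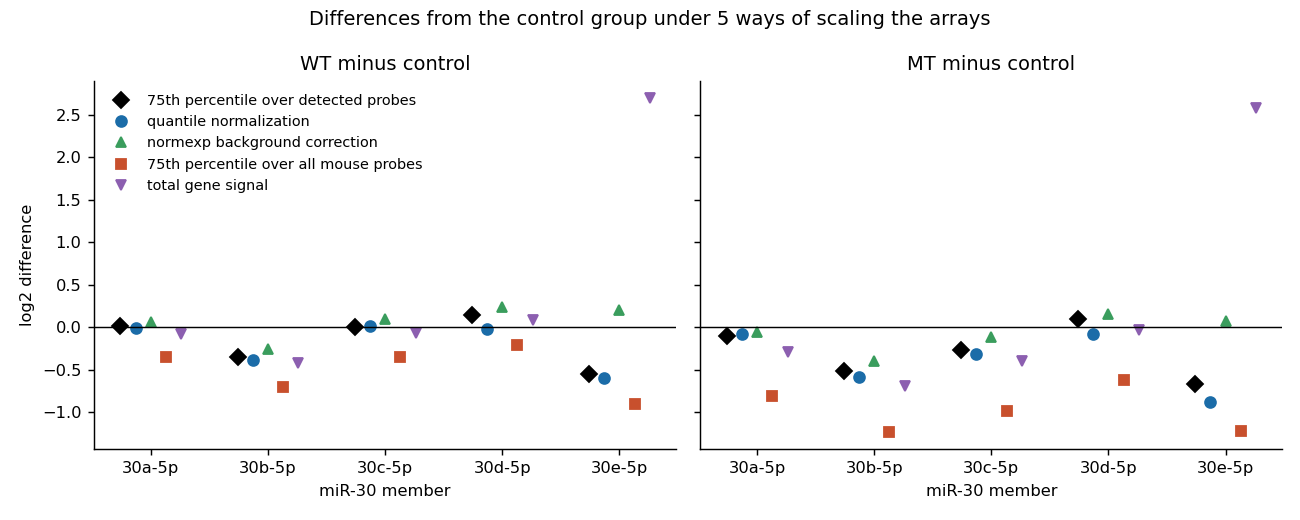
Log2 difference (vertical axis) of each miR-30 5p miRNA from the control group, for the WT group (left) and the MT group (right), under 5 ways of scaling or summarizing the arrays (symbols). miR-30b-5p is below 0 under all 5, and miR-30e-5p ranges from -0.90 to 2.70 in the WT group.

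The deposited files also hold a total gene signal per miRNA, computed by Feature Extraction from the probes of a miRNA, and for miR-30e-5p it did not hold the same quantity on all arrays. On both control arrays it was 48.3 and 43.1 signal units, which is the sum of its own 2 probes within 0.001. On the 6 WT and MT arrays it was 188 to 242 signal units, whereas its own probes summed to 13.2 to 28.6. On these 6 arrays it equalled, within 0.001 signal units, the total of miR-30d-5p plus the brighter probe of miR-30e-5p. Taken as it stands, this column put miR-30e-5p 2.70 above the control group in the WT group and 2.58 above it in the MT group on the log2 scale (adjusted p by limma = 0.003 each), opposite in sign to the values from the background-subtracted probe signals given above. For the other 4 members the column equalled the sum of their own probes within 0.001 signal units on every array. Over all mouse miRNAs called detected by the software, 34 to 50 per array had a total over 1.5 times the sum of their own probes. The main values here rest on the probe signals, and this column served only as an alternative.

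**Figure D4:**
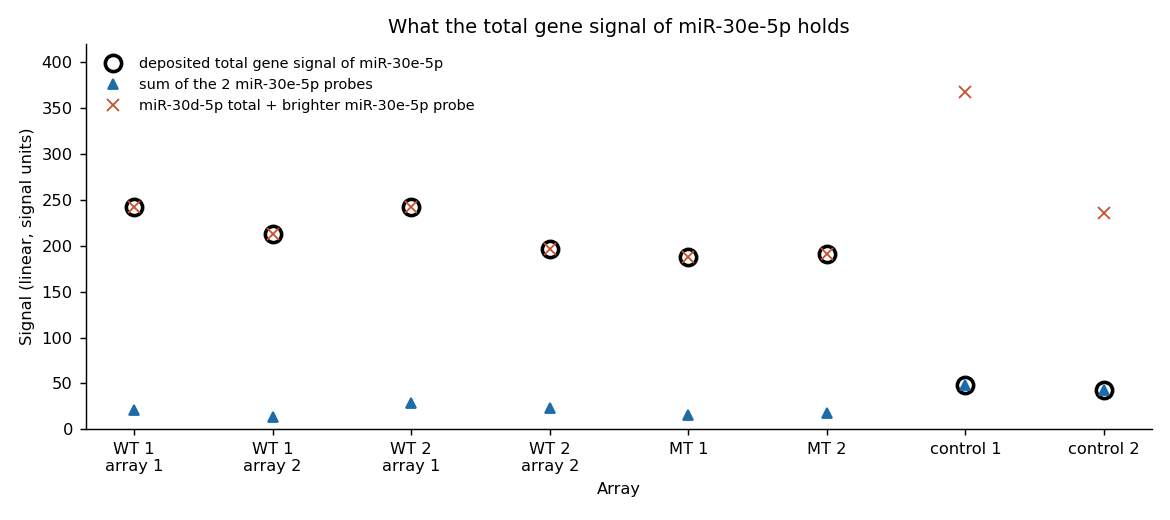
Total gene signal of miR-30e-5p as deposited (open circles), the sum of its own 2 probes (triangles) and the total of miR-30d-5p plus the brighter miR-30e-5p probe (crosses), in linear signal units (vertical axis) for each array (horizontal axis). Circles lie on the crosses on the 6 WT and MT arrays and on the triangles on the 2 control arrays.

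The differences from the control group varied in size between the probes of a member. For miR-30a-5p and miR-30b-5p they were lower at the dimmer probes in both the WT and MT groups. The 3 probes of miR-30a-5p had differences of 0.02, -0.05 and -0.12 between WT and control and of -0.10, -0.20 and -0.29 between MT and control, from the brightest to the dimmest. The 2 probes of miR-30c-5p gave -0.27 and -0.22 between MT and control, and 0.01 and -0.08 between WT and control. Apart from these small WT differences of miR-30a-5p and miR-30c-5p, no sign differed between detected probes of a member.

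Of the 3p arms of the miR-30 hairpins, 5 were on the array, and miR-30d-3p was not analysed here. miR-30a-3p was detected on 1 of 8 arrays, and miR-30b-3p, miR-30c-1-3p, miR-30c-2-3p and miR-30e-3p on 0, so that 0 of these 5 were tested.

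Other miRNAs known to act on osteoblast differentiation were taken from a list of 25 entries, with 42 miRNAs on the array and 20 tested. Entries without a stated arm were matched to every arm on the array, so the shares below depend on the arms taken. Of the tested arms, only miR-199a-5p came from an entry that states its arm. None of miR-34c-3p, miR-135a-1-3p, miR-29b-1-5p, miR-214-5p, miR-322-3p, miR-24-1-5p and miR-24-2-5p was at an unadjusted p of 0.05 by limma in any comparison. Apart from miR-199a-5p, the unadjusted calls below also came from entries without a stated arm. No tested arm of the list passed an adjusted p of 0.05 by limma. At an unadjusted p of 0.05 by limma, 4 were lower and 2 higher in the WT group than in the control group (30% of the list, beside 28.2% of all tested miRNAs), 3 were lower and 3 higher in the MT group (30% beside 39.4%), and 0 differed between WT and MT. The list's median differences were 0.06, -0.08 and 0.01, beside 0.12, 0.13 and -0.04 for all tested miRNAs. The tested arms of the entries listed for Runx2 did not all share a direction. The list states no arm for any of the entries they came from. miR-34c-3p is the opposite arm of miR-34c-5p, and miR-135a-5p, the opposite arm of miR-135a-1-3p, was detected on 0 arrays. miR-23a-3p, miR-34c-5p and miR-218-5p differed from the control group by -0.06, -0.39 and -0.45 in the WT group and by -0.08, -0.39 and -0.41 in the MT group, whereas miR-34c-3p differed by 0.19 and -0.03 and miR-135a-1-3p by -0.05 and 0.12. Of these, miR-218-5p, miR-34c-3p and miR-135a-1-3p were named after their values were seen, to complete the set. miR-26a-5p and miR-199a-5p, listed for Smad1, differed by -0.17 and 0.39 in the WT group and by -0.28 and 0.59 in the MT group.

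The mean of the 5 members, each centred on its own mean, was 0.22 and 0.07 in the control samples, -0.01 and 0.01 in the WT samples and -0.26 and -0.03 in the MT samples. Over the 6 RNA samples, the tested miRNAs outside the family most like this profile were miR-22-3p (Pearson r = 0.96), miR-16-5p (0.95), miR-26a-5p (0.95), miR-212-3p (0.93) and miR-28-5p (0.92). These are a description over 6 points that share their arrays and their scaling. Under quantile normalization 3 of these 5 stayed among the 5 most alike, and under the scaling over all mouse probes 4 did.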

How the data were processed

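The authors deposited Agilent Feature Extraction output of 8 one-colour arrays, with spot intensity after background subtraction, and a series table that equals the same intensity within rounding (at most 0.5 signal units, and a relative difference of at most 0.005 where the signal exceeds 1). The headers name version 10.7.1.1 and the submitters' notes version 9.1. No source used here states how the authors normalized the arrays. The labels give no separate cultures.

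Outlier spots were left out, spots of a probe averaged, and each array divided by its 75th percentile over 174 probes detected on all 8 arrays. The quotient was multiplied by the geometric mean of the 8 percentiles, a floor set (4.08 on the log2 scale, no member was below it), and log2 taken. The probe of highest mean signal stood for a miRNA. WT technical arrays were averaged. The 3 groups (2 RNA samples each) were fitted together with limma 3.58.1 in R 4.3.3, with Benjamini-Hochberg adjustment over 142 miRNAs and threshold 0.05. The fit was tested on simulated data. Permutation used scipy 1.17.1 and plots matplotlib 3.10.9. No spot was saturated (0 of 13715 per array). The number of arrays limits the precision.

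The members and lists were chosen with earlier results of these data known. Named were the 5 members, their other arms, up to 4 listed miRNAs that share Runx2 or Smad1 as a target (3 more were added later), and the 5 most alike miRNAs. Alternatives were 24 planned settings (scaling, quantile normalization, normexp with offset 50, filters, probes, technical arrays, block, slide side, each replicate left out) and 1 added after seeing the data. Sequences came from the RefSeq table (GRCm38.p6).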

Additional observations from a re-analysis of the deposited data

How the results depend on the processing

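Differences are on the log2 scale. miR-30b-5p was below the control group in the WT and MT groups under every alternative run. Many alternatives change only the floor, filter, blocking or model of the spread and could not move that difference. The values below are member differences and medians that turned or moved, with the counts past the adjusted p. The number of members at an unadjusted p of 0.05 ran from 0 to 1 in WT against control and from 0 to 2 in MT against control over all alternatives. The cause was not tested, except where a value is given for it. Scaling by the 75th percentile over all mouse probes put WT minus control at -0.34, -0.35 and -0.21 for miR-30a-5p, miR-30c-5p and miR-30d-5p and MT minus control of miR-30d-5p at -0.61, and gave member medians of -0.35 (WT minus control), -0.98 (MT minus control) and 0.47 (WT minus MT). WT minus control turned for miR-30a-5p to -0.0037 (quantile normalization), -0.077 (total gene signal), -0.051 (mean of all probes), -0.052 and -0.12 (the 2 dimmer probes) and -0.039 (first technical array). It turned for miR-30c-5p to -0.063 (total gene signal), -0.037 (mean of all probes), -0.029 (outlier spots kept), -0.083 (dimmer probe) and -0.029 (slide side fitted), and for miR-30d-5p to -0.013 (quantile normalization). MT minus control of miR-30d-5p turned to -0.076 (quantile normalization), -0.032 (total gene signal) and -0.078 (slide side fitted). For miR-30e-5p, normexp gave 0.20 and 0.074 and the total gene signal, which adds miR-30d-5p on the WT and MT arrays, 2.70 and 2.58 for WT and MT minus control, so that 1 member passed the adjusted p in each of these comparisons. WT minus MT of miR-30e-5p turned to -0.062 (outlier spots kept), -0.0049 (second technical array) and -0.10 (slide side fitted). Normexp gave a member median of -0.051 for MT minus control. With 1 RNA sample left out at a time, WT minus control ranged from -0.11 to 0.15, -0.055 to 0.071 and -0.012 to 0.30 for miR-30a-5p, miR-30c-5p and miR-30d-5p, with a member median of -0.11 to 0.071, and MT minus control from -0.23 to 0.033 for miR-30a-5p, -0.057 to 0.26 for miR-30d-5p, -0.43 to -0.10 for miR-30c-5p and -0.81 to -0.22 for miR-30b-5p, with a median of -0.43 to -0.10 and 0 to 1 members past the adjusted p (miR-30b-5p, without MT replicate 2). WT minus MT ranged from -0.13 to 0.47 for miR-30b-5p, 0.11 to 0.44 for miR-30c-5p, -0.044 to 0.13 for miR-30d-5p and -0.10 to 0.33 for miR-30e-5p.

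The labels do not say whether samples of the same replicate number in different groups were prepared together. Same-numbered samples deviated together with r = 0.02 (WT and MT), 0.39 (WT and control) and -0.46 (MT and control). With the replicate block 0 members passed the adjusted p in any comparison, with medians of 0.01, -0.27 and 0.12 as without it, and with MT and control crossed, chosen after seeing the data, 0 passed. With 2 RNA samples a group and miR-30e-5p near background, small differences were not detectable.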
